A study of Zea mays with 36 samples.

Results

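AK1 and AKHSDH1, the 2 genes annotated as aspartate kinases on these maize cDNA slides, were compared between the shoot apical meristem (SAM) and above-ground seedling parts. They are 2 of the 740 genes named on the slides. Every probe whose platform annotation names either gene was taken. This gave 4 of the 30329 probes used on 2 sets of slides: 3 probes of AKHSDH1 and 1 of AK1. All 4 lay on slide set 2, of which 12027 probes were used, and 0 of the 18302 probes of slide set 1 were annotated to either gene. Most probes had no gene name (16492 on slide set 1 and 11274 on slide set 2), so a clone of either gene without a name would not be counted here.

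Plants make lysine, threonine, methionine and isoleucine from aspartate. Aspartate kinase carries out the entry step by phosphorylating aspartate, and plants have both monofunctional kinases, which lysine inhibits, and bifunctional enzymes that join aspartate kinase to homoserine dehydrogenase and that threonine inhibits. Homoserine dehydrogenase opens the way to threonine, isoleucine and methionine, while dihydrodipicolinate synthase diverts the shared intermediate to lysine. AKHSDH1 is annotated as the bifunctional kind, and AK1 as an aspartate kinase. Growing tissue such as a meristem draws on these amino acids for protein synthesis, and methionine is also the source of S-adenosylmethionine.

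All samples came from the maize inbred line B73 at 14 days after planting. The SAM samples were pools of 6 to 10 vegetative meristems with the P0 and P1 leaf primordia, collected by laser capture, and the seedling samples were pools of the above-ground parts of 6 seedlings of the same batch of plants. There were 6 biological replicates, each a pair of RNA pools hybridised together to 1 slide of each set, with SAM in Cy3 on replicates 1, 3 and 5 and in Cy5 on replicates 2, 4 and 6. The seedling pool holds its own meristems with its leaves, and the laser-captured pools were extracted with another method than the seedlings, so tissue and extraction cannot be told apart. In such pools, more RNA per cell and more cells that express a gene cannot be told apart either.

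A value here is the log2 ratio of the 2 channels of a slide, the mean of its scans at low, medium and high laser power. The tissue in the numerator is not given in the labels, and positive values were read as higher in SAM, which is likely rather than certain. Markers fixed for this check of the SAM samples, which hold leaf primordia, were kn1, TE1, lg3, rs2 and fea2. They were on the SAM side in 4 of 4 measured on slide set 1 (0.30 to 6.77) and in 5 of 5 on slide set 2 (1.52 to 3.58). Of the photosynthesis markers, 5 of 5 on slide set 2 lay on the other side (−7.03 to −4.28), and so did 4 of 5 on slide set 1, where Cab-m7 lay at 1.09. Of the 2 epidermis markers, ocl4 lay on the SAM side on both sets and ocl1 was not called on either.

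AKHSDH1 was higher on the SAM side by all 3 of its probes, with means from 0.65 to 0.72. Its gene value, the mean of the 3 probes on a slide, was 0.95, 0.57, 0.72, 0.19, 0.83 and 0.83 on the slides of replicates 1 to 6. It was above 0 on 6 of 6 slides, and replicate 4 was the lowest. The mean was 0.68 ± 0.27 (SD, n = 6 slides), a 1.60-fold higher level in SAM with a 95% interval from 1.35 to 1.90 (SE 0.102 on the log2 scale, limma adjusted p = 0.000906 over the 455 named genes of slide set 2). Of these genes, 81 had a higher ratio, and 27.9% were called on the SAM side.

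AK1 was also higher on the SAM side, by more on average but far less evenly. Its single probe gave 0.67, 0.72, 2.56, −0.27, 2.13 and 0.80 on the slides of replicates 1 to 6. Replicates 3 and 5 stood well above the rest, and replicate 4 lay below 0. The mean was 1.10 ± 1.05 (SD, n = 6 slides), a 2.15-fold higher level in SAM with a 95% interval from 1.36 to 3.38 (SE 0.272, limma adjusted p = 0.00945 over the same 455 genes). Of these, 46 had a higher ratio. Without replicate 3 the mean was 0.91, and without replicate 1 it was 1.38, with an adjusted p between 0.00165 and 0.0347 over the 6 fits that left out 1 replicate.

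**Figure D1:**
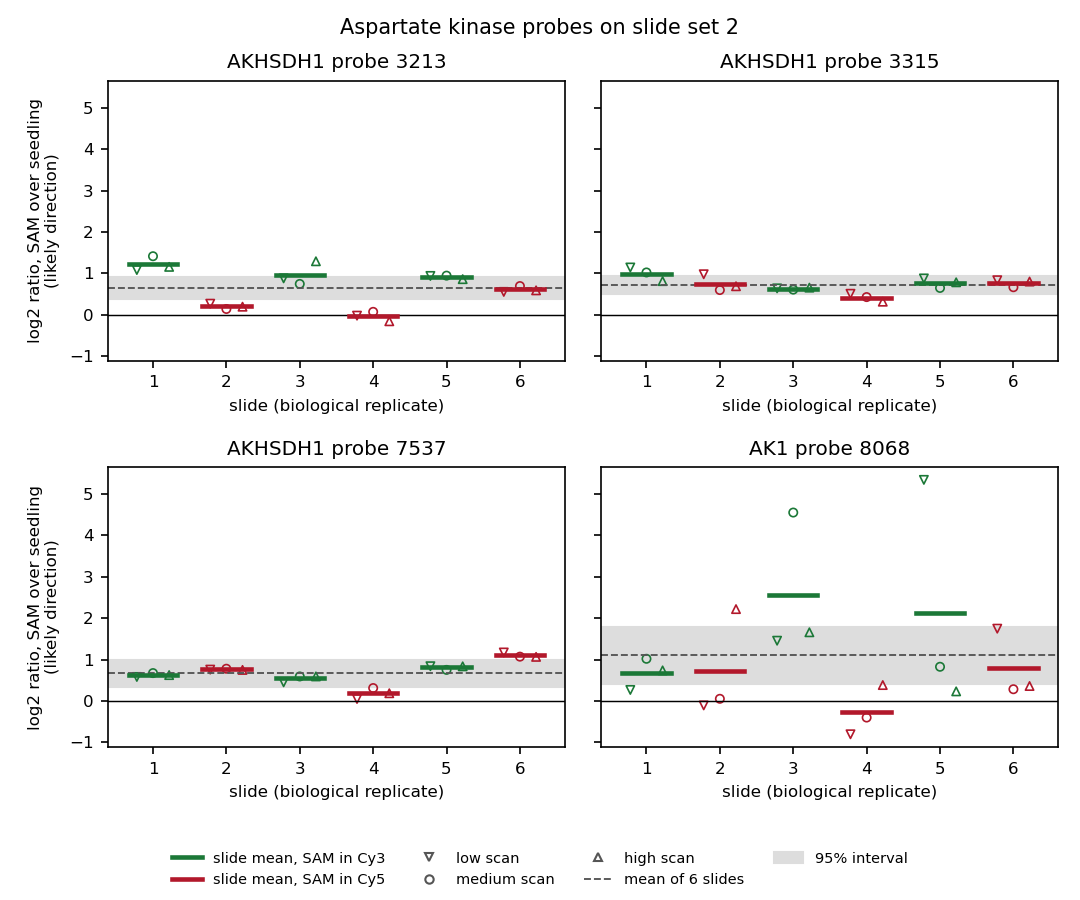
Log2 ratio of SAM over seedling (y axis, likely direction) for the 4 aspartate kinase probes on the 6 slides of slide set 2 (x axis). Open symbols are single scans, bars are slide means coloured by the dye that carried SAM, the dashed line is the mean of the slides and the grey band its 95% interval from limma. The AKHSDH1 scans of a slide lie close together, while the AK1 scans range from −0.81 to 5.34.

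Fitted one by one over all probes, all 4 aspartate kinase probes were called on the SAM side at an adjusted p under 0.05. The background for that count was high: 64.6% of the 12027 probes of slide set 2 were called on either side, and 33.4% on the SAM side. The median ratio of all these probes was 0.03. AKHSDH1 probe 3315 was the most even of the 4, at 0.99, 0.76, 0.63, 0.42, 0.77 and 0.77 on replicates 1 to 6. Its mean was 0.72 ± 0.19 (SD, n = 6; SE 0.0919, limma adjusted p = 0.000715), and 21.6% of probes had a higher ratio. Probe 7537 gave 0.63, 0.76, 0.54, 0.18, 0.81 and 1.10. It was lowest on replicate 4 and highest on replicate 6, with a mean of 0.67 ± 0.31 (SD, n = 6; SE 0.132, limma adjusted p = 0.0049).

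AKHSDH1 probe 3213 gave 1.22, 0.20, 0.97, −0.04, 0.92 and 0.61 on replicates 1 to 6. Its 3 slides with SAM in Cy3 were all above its 3 slides with SAM in Cy5. The mean was 0.65 ± 0.48 (SD, n = 6; SE 0.109, limma adjusted p = 0.00247), made of 1.04 ± 0.16 with SAM in Cy3 and 0.26 ± 0.33 with SAM in Cy5 (SD, n = 3 each). Its dye term was 0.39 and did not pass after adjustment (limma adjusted p = 0.0827). The other 2 AKHSDH1 probes had dye terms of 0.08 for probe 3315 and −0.01 for probe 7537 (limma adjusted p = 0.632 and 0.966).

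The mean ratios of the AKHSDH1 probes could not be told apart on the same slides. Probe 3213 minus probe 3315 was −0.08 (interval −0.55 to 0.34), probe 3213 minus probe 7537 was −0.02 (−0.56 to 0.59), and probe 3315 minus probe 7537 was 0.05 (−0.33 to 0.37). Each interval runs from the lowest to the highest of the 6 within-slide differences, which covers the mean difference at 96.9% by exact sign flips. Over these 3 pairs the exact two-sided sign-flip test gave p = 0.625, 0.875 and 0.688, each adjusted to 0.875. The smallest p that 6 slides allow is 0.0312. These tests take no account of the dye, and the differences of probe 3213 changed sign with it. On every slide with SAM in Cy3, probe 3213 lay above probes 3315 and 7537, and on every slide with SAM in Cy5 below both. Probes 3213, 3315 and 7537 averaged 1.04, 0.80 and 0.66 with SAM in Cy3, and 0.26, 0.65 and 0.68 with SAM in Cy5. Which stretch of the transcript each clone covers, and whether transcripts of related aspartate kinase genes also bound to it, was not tested.

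The 2 genes could not be separated from each other either. AK1 minus AKHSDH1 on the same slide averaged 0.42 ± 0.93 (SD, n = 6), and AK1 was the higher of the 2 on 3 of 6 slides. The exact two-sided sign-flip test gave p = 0.438, and the interval from −0.46 to 1.84 leaves room both for a lower and for a much higher ratio of AK1. Without replicate 3 the difference was 0.14, and without replicate 5 it was 0.24. The slides of replicates 3 and 5 both carried SAM in Cy3.

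With SAM in Cy3, AK1 averaged 1.79 ± 0.99, and with SAM in Cy5 0.41 ± 0.60 (SD, n = 3 slides each). Its dye term of 0.69 did not pass after adjustment (limma adjusted p = 0.178 over all probes). The slides with SAM in Cy5, fitted alone, gave no call for AK1 (limma adjusted p = 0.214 over the named genes). AKHSDH1 averaged 0.83 ± 0.11 and 0.53 ± 0.32 in the 2 orientations, and was called in each of them alone (limma adjusted p = 0.0046 and 0.0449).

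The scans of a slide differed much more for AK1 than for AKHSDH1. In the order low, medium and high, AK1 gave 0.27, 1.02 and 0.74 on replicate 1, then −0.11, 0.05 and 2.22 on replicate 2, and 1.46, 4.55 and 1.66 on replicate 3. On replicate 4 it gave −0.81, −0.40 and 0.38, on replicate 5 it gave 5.34, 0.83 and 0.23, and on replicate 6 it gave 1.75, 0.28 and 0.36. The slide means of replicates 3 and 5 were each raised by 1 scan, the medium scan of the former and the low scan of the latter. Of the 18 scan values of AK1, 15 were above 0, and of the 54 of AKHSDH1, 52 were.

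The SD between the 3 scans of a slide was taken as its root mean square over the 6 slides. It was 1.51 for AK1, at percentile 88.6 of all probes of slide set 2, whose median was 0.169. For AKHSDH1 this SD was 0.151, 0.128 and 0.0739 for probes 3213, 3315 and 7537. A value repeated exactly over many spots of a scan can come from spots at a floor of the signal, which was not tested for these spots. Both the low and the medium scan of replicate 2 gave AK1 the most frequent value of that scan, shared by 595 and 81 spots. The low scans of replicates 3 and 5 gave it a value shared by 3 spots each. No AKHSDH1 scan value was repeated in its scan (0 of 54). With the 2 most frequent values left out, a setting chosen after seeing the data, AK1 averaged 1.35 (SE 0.375, limma adjusted p = 0.016). The values left out, −0.11 and 0.05, lie below the mean of AK1, so leaving them out could only raise it. The values shared by 3 spots, 1.46 on replicate 3 and 5.34 on replicate 5, stayed in.

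**Figure D2:**
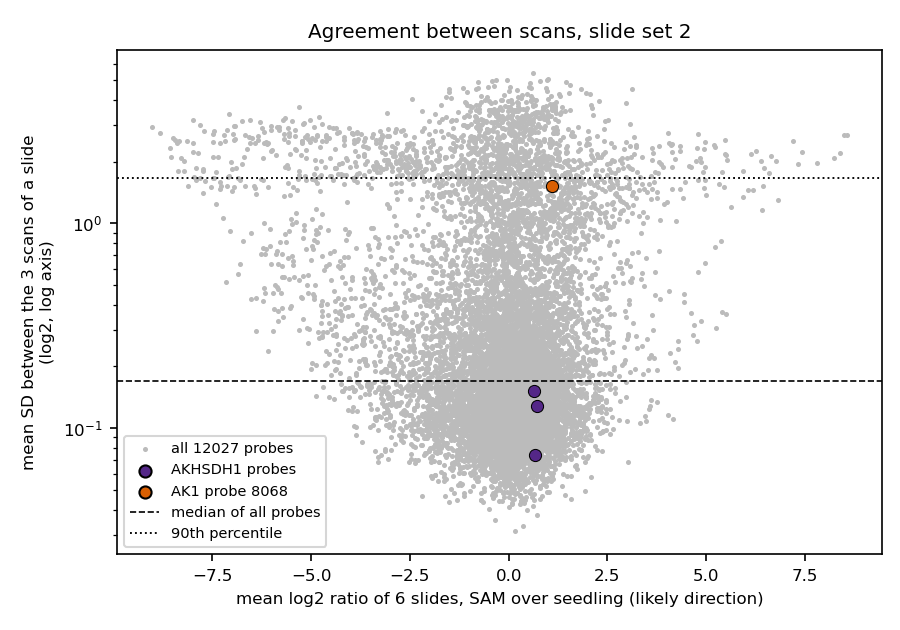
SD between the 3 scans of a slide against the mean log2 ratio of the 6 slides (x axis) for the 12027 probes of slide set 2. The SD (y axis, labelled mean SD, log2 units on a log axis) is the root mean square over the 6 slides. The AKHSDH1 probes lie below the median of 0.169, and the AK1 probe at 1.51 lies just under the 90th percentile of 1.67.

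Scan by scan, AK1 averaged 1.32 ± 2.19 in the low, 1.06 ± 1.79 in the medium and 0.93 ± 0.82 in the high scans (SD, n = 6 slides). All 6 high scans were above 0, against 4 low and 5 medium scans. Only the high scans, fitted alone, called AK1 on the SAM side (limma adjusted p = 0.0306), against 0.157 for the low and 0.1 for the medium scans. The AKHSDH1 probes lay between 0.62 and 0.83 in every scan, and the gene was called in each (limma adjusted p from 0.000983 to 0.00226).

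**Figure D3:**
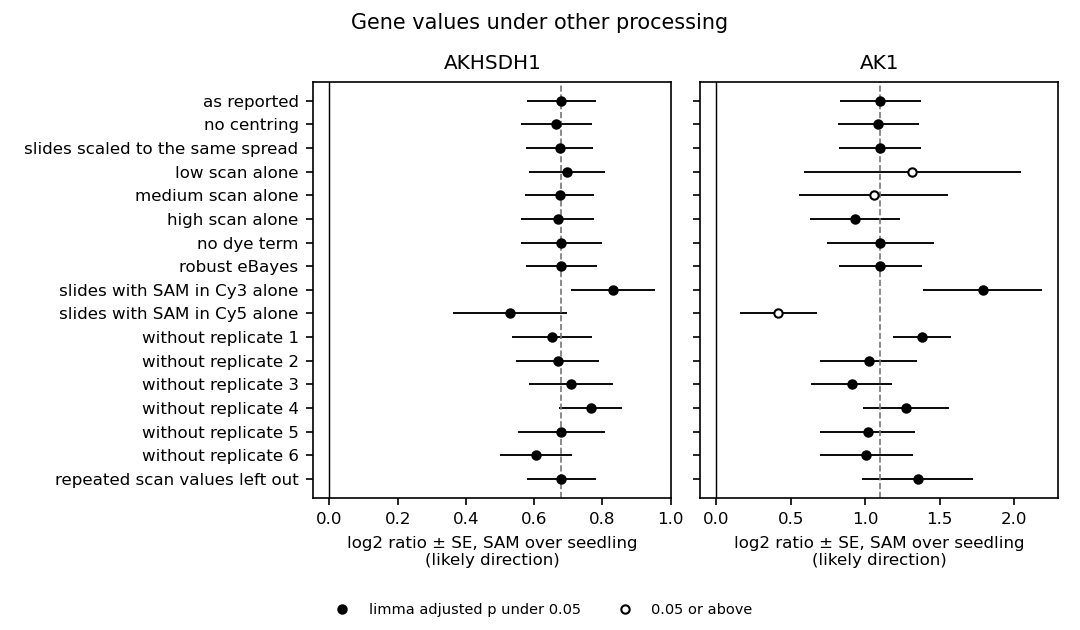
Gene values of AKHSDH1 and AK1 on slide set 2 (x axis, log2 ratio with its SE) under each setting (y axis). Filled points have a limma adjusted p under 0.05. The setting with repeated scan values left out drops only the most frequent value of each scan. AKHSDH1 is filled under every setting plotted, and AK1 is open in the low scan alone, in the medium scan alone and where only slides with SAM in Cy5 were fitted.

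Around the 2 kinases, 11 other genes named on the slides were listed for the aspartate family. Of these, 6 were measured on slide set 1 and 7 on slide set 2. None of them is annotated to the threonine or isoleucine branch. On slide set 2, where the kinases lie, 0 of 7 were called as higher in SAM, 4 as higher in seedling and 3 as neither, with a median of −0.59. Of all 455 named genes of that set, 27.9% were called on the SAM side and 45.7% on the other, and their median was −0.22. On slide set 1, 2 of 6 were called as higher in SAM, 2 as higher in seedling and 2 as neither (median −0.20). The same shares over the 582 named genes of slide set 1 were 27.1% and 45.2%, with a median of −0.24.

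In the methionine branch, cystathionine gamma-synthase (cgs1), which commits the pathway to methionine, was higher on the seedling side on both sets. Its slide values ran from −2.61 through a median of −1.65 to −1.28 on slide set 1, and from −1.60 through −1.43 to −1.18 on slide set 2. All 12 slides were below 0. The means were −1.84 ± 0.58 over 4 probes (limma adjusted p = 4.34e-05) and −1.40 ± 0.19 over 1 probe (limma adjusted p = 1.15e-05; SD, n = 6 slides each), or 3.58-fold and 2.64-fold higher in seedling. Each of the 4 probes of slide set 1 was called on that side (−2.42 to −1.49).

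The methionine cycle around S-methylmethionine was mixed. MMT1, methionine S-methyltransferase, which makes S-methylmethionine, was called on the seedling side on slide set 2 at −0.59 ± 0.54 (limma adjusted p = 0.00054) but not on slide set 1 at −0.25 ± 0.34 (limma adjusted p = 0.0833). On slide set 1 its probe 9013 was called on the seedling side (−0.58) and its probe 9803 was not called (0.08). On slide set 2 the dye term of MMT1 passed as well (0.48, limma adjusted p = 0.0292), and the slides with SAM in Cy3 alone gave −0.11. HMT-2 and HMT-3, homocysteine S-methyltransferases, use S-methylmethionine to make methionine. HMT-2 was called on the SAM side on slide set 1 at 1.41 ± 1.35 (limma adjusted p = 0.000296), with slides from −0.40 through a median of 1.44 to 2.83. Its slides with SAM in Cy3 averaged 2.59 and those with SAM in Cy5 0.24, and the dye term passed (1.18, limma adjusted p = 0.0271). HMT-3 lay at 0.00 ± 0.44 on slide set 2 (limma adjusted p = 0.986).

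In the lysine branch, dps1, dihydrodipicolinate synthase, was higher on the SAM side on slide set 1. Its slides ran from 0.50 through a median of 0.96 to 1.35, all above 0, with a mean of 0.96 ± 0.31 over 2 probes (SD, n = 6; limma adjusted p = 0.000194), or 1.95-fold. A single probe of slide set 2 gave −0.45 ± 1.09 and no call (limma adjusted p = 0.192), with slides from −1.40 through −0.87 to 1.56. The highest of these, replicate 3, was the only slide above 0. Without it the mean was −0.77 and the gene was called on the seedling side (limma adjusted p = 0.00418). By dye, dps1 on slide set 2 averaged 0.27 ± 1.18 with SAM in Cy3 and −1.17 ± 0.21 with SAM in Cy5 (SD, n = 3 slides each). Fitted alone, the slides with SAM in Cy5 were called on the seedling side (limma adjusted p = 0.0023). The dye term of 0.72 did not pass after adjustment (limma adjusted p = 0.184). The difference of dps1 between the sets, set 2 minus set 1, was −1.41. The exact two-sided permutation test of 6 against 6 slides gave p = 0.0216, adjusted to 0.0866 over the 4 aspartate-family genes measured on both sets. The other 3 differences were 0.44 for cgs1, −0.34 for MMT1 and 0.24 for pep7, with adjusted p of 0.234, 0.291 and 0.582 by the same exact test. Genes outside the aspartate family that were measured on both sets, such as gln1, were not tested between sets.

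Lysine breakdown was not called. The bifunctional lysine-ketoglutarate reductase and saccharopine dehydrogenase gene lkrsdh1 lay at 0.08 ± 0.76 on slide set 2 (limma adjusted p = 0.698). The gene o2, opaque2, an endosperm transcription factor known in maize to act on lysine breakdown, lay at −0.15 ± 0.52 on slide set 1 (limma adjusted p = 0.336). With the dye term fitted, the interval of the mean was −0.34 to 0.50 for lkrsdh1 and −0.48 to 0.17 for o2, so a difference of that size could have been missed. Both means join averages of opposite sign by dye. With SAM in Cy3 and in Cy5, lkrsdh1 averaged 0.64 and −0.48, and o2 averaged −0.54 and 0.24. Their dye terms of 0.56 and −0.39 did not pass after adjustment (limma adjusted p = 0.133 and 0.106).

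Phosphoenolpyruvate carboxylases make oxaloacetate, from which aspartate is formed, and in maize leaves also fix carbon for C4 photosynthesis. On slide set 2, pep4 was higher on the seedling side at −1.08 ± 0.36 (limma adjusted p = 0.000403), below 0 on 6 of 6 slides. The related gene pep7 was at −1.01 ± 0.57 over 7 probes on slide set 1 (limma adjusted p = 0.000348) and at −0.77 ± 0.85 over 1 probe on slide set 2 (limma adjusted p = 0.0188). Of the 7, probes 7594 and 10098 were not called (−0.66 and −0.33). The rest were called on the seedling side, the lowest at −2.50 (probe 15338). The call of pep7 on slide set 2 was lost without replicate 1, 4 or 6 (−0.63, −0.63 and −0.71) and in the low scan alone (−0.51). With SAM in Cy3 alone pep7 was called on neither set, at −0.54 on slide set 1 and −0.22 on slide set 2 (limma adjusted p = 0.0626 and 0.486). Spots of pep1 and of the asparagine synthetase gene asn1 on slide set 2 held no deposited value.

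**Figure D4:**
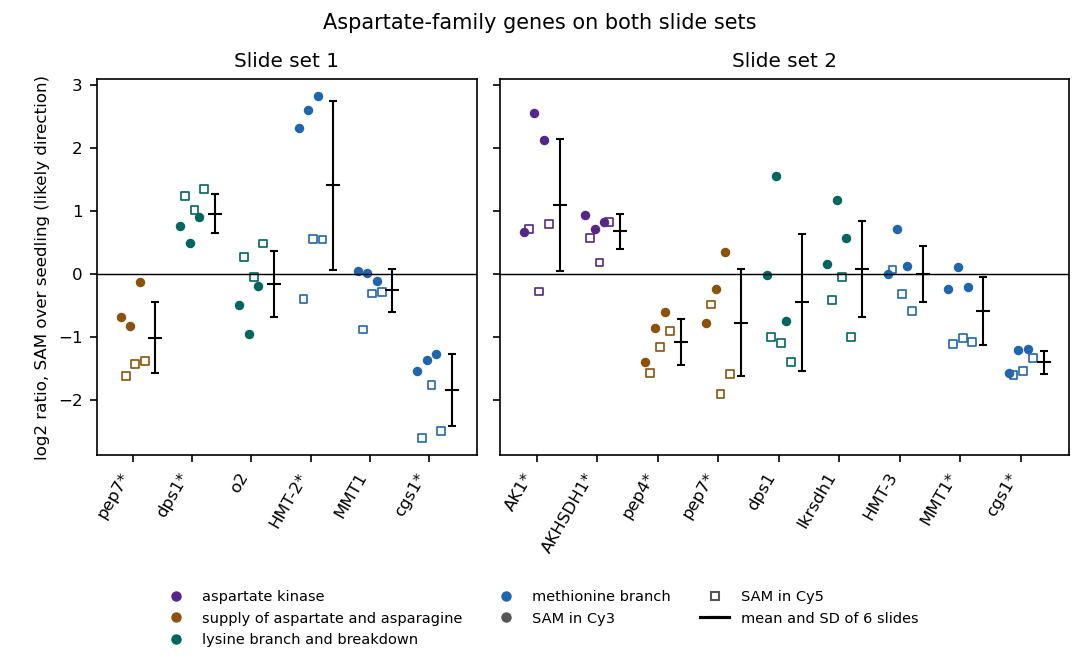
Gene values (y axis, log2 ratio of SAM over seedling, likely direction) of the aspartate kinases and the other aspartate-family genes (x axis) on slide sets 1 and 2. Points are the 6 slides, filled with SAM in Cy3 and open with SAM in Cy5, bars are the mean and SD, and a star marks a limma adjusted p under 0.05. On slide set 2 the 2 kinases are the only starred genes above 0.

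Genes of other amino acid synthesis had medians below 0 on both sets. On slide set 2, 1 of 8 was called as higher in SAM, 6 as higher in seedling and 1 as neither, with a median of −1.60, and on slide set 1 it was 0, 4 and 3 of 7, with a median of −0.84. Over all named genes, 45.7% on slide set 2 and 45.2% on slide set 1 were called as higher in seedling, so the 4 of 7 lies near the background. The glutamine synthetase gln4, at 0.38 ± 0.20 on slide set 2 (limma adjusted p = 0.00605), was the 1 gene called on the SAM side, and it was not called on slide set 1 (−0.12 ± 0.21, limma adjusted p = 0.198). Its call on slide set 2 was lost with SAM in Cy3 alone (0.24, limma adjusted p = 0.197). The glutamine synthetase gln1 (−4.28 ± 0.25 and −2.51 ± 0.30 on slide sets 2 and 1), GLN6 (−2.42 ± 1.15 and −2.90 ± 0.75) and the nitrite reductase NIR (−2.57 ± 0.75 and −1.58 ± 1.67) were called as lower in SAM on both sets. The call of NIR on slide set 1 was lost in the low scan alone (−0.96, limma adjusted p = 0.123) and with SAM in Cy3 alone (−0.46, limma adjusted p = 0.0875), and 1 of its 2 probes there was not called, with slides from −7.54 to 1.51. TSB2, a tryptophan synthase beta subunit, was at −0.67 ± 0.30 and −0.84 ± 0.32 on the same sets and was called on both. On slide set 1 its probe 12819 was called (−1.34) and its probe 10514 was not (−0.33). Also called on the seedling side of slide set 2 were gln5, a glutamine synthetase, at −1.86 ± 0.36, and gdh1, glutamate dehydrogenase, at −1.35 ± 0.29. Not called were gln3 at 0.52 ± 1.66 on slide set 2, and on slide set 1 TSB1 at −0.20 ± 0.31 and the pyrroline-5-carboxylate reductase p5cr at −0.19 ± 0.84. The mean of p5cr joins slides of opposite sign: −0.93 with SAM in Cy3, called when fitted alone (limma adjusted p = 0.0043), and 0.56 with SAM in Cy5, not called (0.0626), with a dye term that passed (−0.74, limma adjusted p = 0.0273). TSB1 was called on the seedling side with SAM in Cy5 alone (−0.46, limma adjusted p = 0.0467).

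The named genes with slide values nearest to those of AKHSDH1 were rpl17, a ribosomal protein gene, then pk8-a and hmg2, an HMG-type chromatin protein gene. Their root mean square differences from AKHSDH1 over the 6 slides of slide set 2 were 0.149, 0.217 and 0.227 log2 units, out of 454 genes compared. Those nearest to AK1 were nfa101 (0.594), MCM6 (0.627), a subunit of the replicative helicase, and AS2 (0.632), a LOB-domain gene also known as IG1. AK1 and AKHSDH1 differed by 0.948, and 176 genes were nearer to AKHSDH1 than AK1 was, while 29 were nearer to AK1 than AKHSDH1 was. The slides share RNA pools and dyes across all these genes.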

How the data were processed

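Per the labels, amplified RNA of 6 pairs of pools was hybridised to 12 slides, and 3 of 7 scans per slide were deposited. The deposited values were read as the natural log of a channel ratio and converted to log2 here. No label states the base: values repeated within a scan lay 2 natural logs of a whole number (up to 20) apart in 73 of 54598 pairs, against 2 for log2 and 2 for log10 (tolerance 2e-05). Slides of opposite dye orientation correlated positively (r 0.701 to 0.861 on slide set 1 and 0.597 to 0.745 on slide set 2), so the values had been turned the same way. The numerator, the normalization and the background handling are not given in the labels. The label of 1 scan of slide set 1 names seedling tissue in both channels, and its sample name was followed.

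Spots without a value were left out (898 on slide set 1 and 2001 on slide set 2). On slide set 2, 53 spots were identical in all scans, and only the first of them was kept. Scans were median-centred, and a slide's value is the mean of its 3 scans. Per slide set, a mean and a dye term (±1) were fitted with limma 3.58.1 under R 4.3.3, with Benjamini-Hochberg adjustment over all 18302 or 12027 probes, or 582 or 455 named genes, and a threshold of 0.05. Differences on the same slides or between sets were tested by exact permutation. Fits and tests were tested on simulated data. With 6 slides a set, precision is limited, and the median SE of a probe was 0.159 on slide set 1 and 0.119 on slide set 2. A gene value is the mean of its probes, and probes of several genes (23) were left out of it.

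Names come from the platform annotation and the RefSeq genes of Zm-B73-REFERENCE-NAM-5.0. These carry no gene titles, so pathway genes were matched by symbol and synonym. AK1's gene ID was not among the latter (0 matches), and AK1 is there a synonym of 2 other entries, which have no probe on the slides. The members, lists and tests were chosen with earlier results of these data known. Genes named are the members, every measured gene of the pathway lists, and the 3 genes with the smallest root mean square difference from each member over the 6 slides. The gene sam2 was left out of the pathway lists because its identity was unsure. Same-numbered slides of both sets carry the same RNA pair by their sample names. Their deviations from the mean of the slides of the same set and dye orientation correlated at 0.057 to 0.265 over 294 genes. Alternatives were other scans, centring, scaling, dye handling, log base, each replicate left out, a 2-fold limit and gene medians.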

Additional observations from a re-analysis of the deposited data

Results flagged for a closer look

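The lysine-branch gene dps1 differed between the slide sets, with set 2 minus set 1 at −1.41 on the log2 scale. The exact two-sided permutation test of 6 against 6 slides gave p = 0.0216. After adjustment over the 4 aspartate-family genes measured on both sets it was 0.0866, so the difference does not pass the correction. Other genes measured on both sets were not tested this way. With slides of the same RNA pair taken as pairs, the exact p was 0.0938. Set 2 was the lower on 5 of 6 pairs, and replicate 3 went the other way. Different clones of dps1 were spotted on the 2 sets, and their part in the difference was not tested. None of the 34 sets of 6 slide values tested had a slide that stood apart from the others by Dixon's test, where chance gives about 1 in 20.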

How the results depend on the processing

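The values for the aspartate kinases, the counts and the differences were compared with the main setting. Of these, 286 were unchanged, 12 fell short of the threshold, 2 newly passed it and 6 counts moved by over 1.5 times. Unchanged means the same side of the threshold, or for a count a move of at most 1.5 times. Some of the 286 could not change. Reading values as log2 changes no p, and with 5 slides the smallest exact sign-flip p is 0.0625. AK1 enters both as a gene and as its 1 probe. No called value turned direction, but differences that were not called changed sign between settings. Probe 3213 minus 3315 ran from −0.21 to 0.02, probe 3213 minus 7537 from −0.15 to 0.08 and probe 3315 minus 7537 from −0.03 to 0.19, and pep7 between sets was −0.02 in the medium scan alone. With SAM in Cy5 alone, AK1 (0.41) and AKHSDH1 probes 3213 (0.26) and 7537 (0.68) were no longer called. AK1 was also not called in the low (1.32) or medium (1.06) scan alone. A 2-fold limit left AKHSDH1 out, as a gene (0.68) and as probes 3213 (0.65), 3315 (0.72) and 7537 (0.67), and kept AK1. That limit, which asks for more by construction, took the probes called on slide set 2 from 7769 to 3875 and those on the SAM side from 4020 to 1737. Named genes called on slide set 1 went from 158 to 88 (SAM) and 263 to 168 (seedling), and on slide set 2 from 127 to 52 and 208 to 136. Leaving out 1 replicate gave 0.61 to 0.77 for AKHSDH1 and 0.91 to 1.38 for AK1. It gave 0.56 to 0.72, 0.67 to 0.78 and 0.57 to 0.80 for probes 3213, 3315 and 7537.

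The dps1 difference between sets passed the adjusted threshold in the high scan alone (−1.54) and without replicate 3 (range −1.91 to −1.14 over the replicates left out). The cause was not tested. With the replicate block, which pairs slides of the same RNA pair, the dps1 difference was −1.41 with an adjusted exact p of 0.125. The differences of cgs1 (0.44), MMT1 (−0.34) and pep7 (0.24) were not called either. The smallest exact p that 6 pairs allow is 0.0312, so 1 gene alone could not pass adjustment over 4 genes. The lack of a call therefore does not show whether pairing matters. Values read as log2 already would be smaller, at 0.47 for AKHSDH1 and 0.76 for AK1, with the same calls. For other pathway genes 511 values kept their side, 17 fell short and 4 newly passed.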
